A study of Mus musculus with 110 samples.

Results

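The genes described here are Htt, Atn1, Atxn1, Atxn2, Atxn3, Atxn7 and Tbp, the mouse orthologues of 7 human genes whose expanded CAG repeats cause polyglutamine disease. They were picked by name from the gene-symbol column of a read-count table, and all 7 were found among its 24056 gene symbols and passed the filter on low counts in every fit. On GRCm38.p6 they are Htt (chr5:34761721-34912534), Atn1 (chr6:124742544-124756487), Atxn1 (chr13:45549755-45964991), Atxn2 (chr5:121711609-121814950), Atxn3 (chr12:101918901-101959121), Atxn7 (chr14:13961283-14107316) and Tbp (chr17:15499888-15517427), all protein-coding. The question put to them was whether a zinc-finger protein (ZFP) made to repress mutant huntingtin also lowers mouse genes of this family. The study sequenced RNA bound to HA-tagged ribosomes (the IP, a RiboTag pulldown) and the matching tissue RNA (the Input). There were 4 conditions, each with an AAV: R6/2 with ZFP (RZ), R6/2 with the control AAV Delta (RD), NCAR with ZFP (NZ) and NCAR with Delta (ND). R6/2 mice carry a transgene with the first exon of human mutant huntingtin; every library is labelled with the R6/2 strain, and the labels do not say what NCAR stands for.

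The libraries form 4 sets. The MG set (IP alone) and the n_ZFP_a_Rpl set are labelled as astrocyte pulldowns, and the hSyn and n_ZFP_n_Rpl sets as neuron pulldowns. The labels do not state, set by set, which cells received the ZFP, nor the promoter, the tissue, the age, the sequence the ZFP binds, or whether a library is 1 animal or a pool. P-values therefore measure the spread between these libraries. The MG IP had 4 libraries per condition. In each fraction, the hSyn set had 4 RZ, 3 RD, 4 NZ and 5 ND libraries, the n_ZFP_a_Rpl set 4, 3, 4 and 4 in that order, and the n_ZFP_n_Rpl set 4 of each, which makes 110 libraries with 26369041 to 72623472 assigned counts each.

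In polyglutamine diseases a CAG repeat in a coding exon lengthens and the protein gains a long glutamine tract, which makes it prone to aggregate. The proteins otherwise have little in common. Huntingtin (Htt) is a scaffold for vesicle transport. Atrophin 1 (Atn1) and ataxin 1 (Atxn1) are nuclear co-repressors, ataxin 2 (Atxn2) binds RNA, ataxin 3 (Atxn3) is a deubiquitinase, ataxin 7 (Atxn7) anchors the deubiquitinase module of the SAGA coactivator, and Tbp is the TATA-binding protein of the basal transcription machinery. The mouse genes carry shorter or interrupted repeats. The human transgene has no row in the table, so the level of the intended target was not measured here.

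The RefSeq promoter windows (GRCm38.p6, 250 bases before to 50 after each start) were searched for CAGCAGCAGCAG and, for the other strand, CTGCTGCTGCTG. Of 32851 windows, 121 (0.368%) held such a run of 4 units or more, and none of the 6 windows of Htt, Atxn2, Atxn3, Atxn7 and Tbp did. Atn1 and Atxn1 had no entry. The coding repeats that define the family were not searched, so the lack of a run in these windows does not describe them. Whether a run in a window bears on a gene's response to the ZFP was not tested. The 250 bases before the start given by that table are shown for Htt, the family member the study is about, and for Atxn7, the member that fell most often with the ZFP. Prelp and Rsl24d1, which are no members, are shown as genes with a run that were lower with the ZFP, chosen after their values were seen. Capitals mark CAG or CTG in a run of at least 2 units, read 5′ to 3′ on the gene's strand.
Htt, chr5:34761490-34761739, plus strand: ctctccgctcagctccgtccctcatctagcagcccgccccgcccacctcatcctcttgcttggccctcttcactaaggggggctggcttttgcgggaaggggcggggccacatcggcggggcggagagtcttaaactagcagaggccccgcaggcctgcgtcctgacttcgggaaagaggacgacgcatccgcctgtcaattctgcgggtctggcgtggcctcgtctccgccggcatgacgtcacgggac
Atxn7, chr14:14012241-14012490, plus strand: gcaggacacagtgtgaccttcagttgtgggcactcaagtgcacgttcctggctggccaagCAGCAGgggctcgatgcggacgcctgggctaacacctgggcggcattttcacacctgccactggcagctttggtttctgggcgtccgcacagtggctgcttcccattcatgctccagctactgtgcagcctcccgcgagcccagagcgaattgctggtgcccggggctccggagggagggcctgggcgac
Prelp, chr1:133921402-133921651, minus strand: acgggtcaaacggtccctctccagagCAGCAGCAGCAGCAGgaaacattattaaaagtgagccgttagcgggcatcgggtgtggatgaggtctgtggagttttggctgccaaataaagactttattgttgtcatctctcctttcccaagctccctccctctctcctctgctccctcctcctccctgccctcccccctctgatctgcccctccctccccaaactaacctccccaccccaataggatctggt
Rsl24d1, chr9:73113219-73113468, plus strand: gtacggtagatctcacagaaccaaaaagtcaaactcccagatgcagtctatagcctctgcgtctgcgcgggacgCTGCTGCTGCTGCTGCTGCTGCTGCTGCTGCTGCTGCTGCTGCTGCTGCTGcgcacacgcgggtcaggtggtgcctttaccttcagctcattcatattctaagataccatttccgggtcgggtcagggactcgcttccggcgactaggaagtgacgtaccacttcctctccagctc
The Htt window had no run of CAG or CTG above a single unit, and the Atxn7 window had a run of 2. Runs of 2 units (CAGCAG or CTGCTG) stood in 31.6% of all windows. The Atxn7 window lies inside the annotated gene, whose span is chr14:13961283-14107316. A match or its lack in a window is a description of these letters and not a binding site.

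Levels below are CPM, read counts scaled to a common library size with TMM factors within a set and fraction. They are not compared between genes, as no transcript lengths were used. Differences are log2 fold changes with their standard error from edgeR's quasi-likelihood test, adjusted by Benjamini-Hochberg over all genes of the fit, with 0.05 as the threshold. The sum of 10 astrocyte markers ran from 11710 to 23160 CPM in the n_ZFP_a_Rpl IP against 3992 to 7077 CPM in its Input, and all 10 were higher in the IP. Neuron markers were not depleted there: 6 of 10 were higher and 2 lower in that IP, with a median of 0.23. All 8 microglial and all 5 endothelial markers were lower in the IP than in the Input of the 3 sets with both. Oligodendrocyte markers remained in the IPs. Their sum over 6 genes was 2002 to 3020 CPM in the n_ZFP_a_Rpl IP against 4095 to 6785 CPM in its Input. It varied between libraries of a group, from 1433 to 4446 CPM in RD of the MG IP. In both neuron IPs, all 10 neuron markers were higher than in the Input. Astrocyte markers stayed in the hSyn IP, with a sum of 2489 to 7346 CPM against 3515 to 7602 CPM in its Input (1 of 10 higher, 7 lower, median -0.31). All 10 were lower in the n_ZFP_n_Rpl IP than in its Input (median -0.84). In bulk libraries, fewer cells of a type and less RNA per cell cannot be told apart.

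By edgeR, 3 of the 7 members passed between ZFP and Delta in at least 1 fit, and the other 4 passed in none. Over 7 genes and 7 fits of a set and fraction, RZ against RD gave 49 tests, of which 5 passed as higher and 2 as lower. NZ against ND gave 49 more, of which 0 passed as higher and 1 as lower by edgeR. At an unadjusted p under 0.05, NZ against ND had 5 higher and 7 lower values, and DESeq2 called 2 higher and 5 lower. Every pass by edgeR belonged to Atxn1, Atxn7 or Atxn3. Where groups are said not to overlap, this describes the libraries shown and is not a call. The share of all genes whose groups did not overlap was not counted. Not passing does not show a lack of change: the widest 95% intervals of RZ against RD reached -41.9% for Atn1 and -36.3% for Atxn2.

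**Figure D1:**
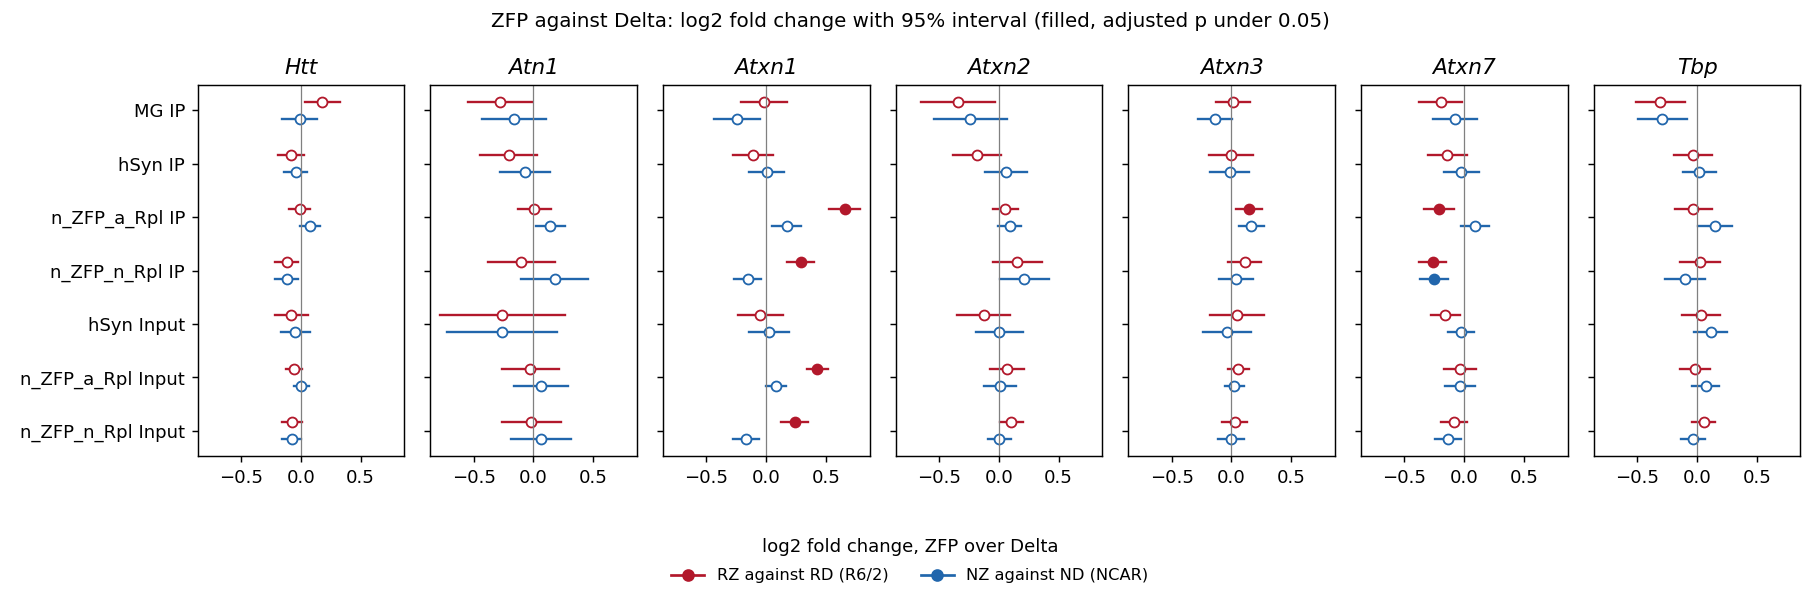
Log2 fold change of ZFP over Delta for each gene (panels), in R6/2 (red, RZ against RD) and NCAR (blue, NZ against ND), by set and fraction. Lines are 95% intervals and filled points passed the threshold. Atxn1 lies right of 0 in R6/2 in the IP and Input of both sets whose names start with n_ZFP, and Atxn7 lies left of 0 in R6/2 in all 7 fits.

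These counts stand against different backgrounds. Between RZ and RD, the share of all tested genes called higher was 0.013% in the MG IP, 0.00652% in the hSyn IP, 19.1% in the n_ZFP_a_Rpl IP and 9.47% in the n_ZFP_n_Rpl IP. The share called lower was 0.0652%, 0.0326%, 14.7% and 7.95% in the same order. In the Inputs, 0.0%, 11.1% and 2.49% were higher and 0.0%, 5.03% and 0.828% lower in the hSyn, n_ZFP_a_Rpl and n_ZFP_n_Rpl sets. Between NZ and ND, the lower share was 3.36%, 0.0261%, 0.872% and 4.5% in the 4 IPs, and 0.00622%, 0.482% and 2.33% in the 3 Inputs; the higher share was 3.68%, 0.0%, 1.2% and 2.86% in the IPs and 0.0%, 0.475% and 0.695% in the Inputs. The MG shares for NZ against ND rested on single libraries. With each MG library left out in turn they ran from 0.0906% to 6.88% lower and from 0.0323% to 6.79% higher, and both were under 0.5% without ND replicates 1, 2 or 3 or NZ replicates 3 or 5. In the hSyn set, few genes of any kind were called between ZFP and Delta.

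By edgeR, Htt passed the threshold in none of the 14 comparisons of ZFP with Delta. Its values ran from -0.12 to 0.18 between RZ and RD and from -0.12 to 0.08 between NZ and ND. The widest 95% intervals reached a decrease of 14.1% and an increase of 25.4% in R6/2, and a decrease of 13.96% and an increase of 11.7% in NCAR.

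The lowest values were in the n_ZFP_n_Rpl set. In its IP, Htt had 418, 420, 422 and 392 CPM in RZ, against 453, 449, 463 and 427 CPM in RD. The groups did not overlap, and the difference was -0.12 ± 0.05 (adjusted p 0.0924 by edgeR; DESeq2 gave -0.12 with an adjusted p of 0.0419). In the same IP, Htt had 425, 425, 428 and 402 CPM in NZ and 475, 482, 426 and 441 CPM in ND, groups that overlapped (-0.12 ± 0.05, adjusted p 0.126). The Input of that set had 385, 380, 380 and 375 CPM in RZ against 401, 404, 401 and 392 CPM in RD, again with no overlap (-0.07 ± 0.04, adjusted p 0.350). The interaction in that IP, the ZFP difference in R6/2 less that in NCAR, was 0.00 ± 0.07.

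In the MG IP the direction was the other way. Htt had 332, 381, 355 and 359 CPM in RZ and 294, 327, 311 and 327 CPM in RD, with no overlap (0.18 ± 0.07, adjusted p 0.206). The difference of RZ against RD between the n_ZFP_a_Rpl and MG sets was -0.19 ± 0.07 (adjusted p 0.0658 by edgeR). Under RLE factors, no filter and DESeq2 this difference passed, at values between -0.22 and -0.23.

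Htt also did not pass between RD and ND in any of 7 fits, with values from -0.11 to 0.09.

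**Figure D2:**
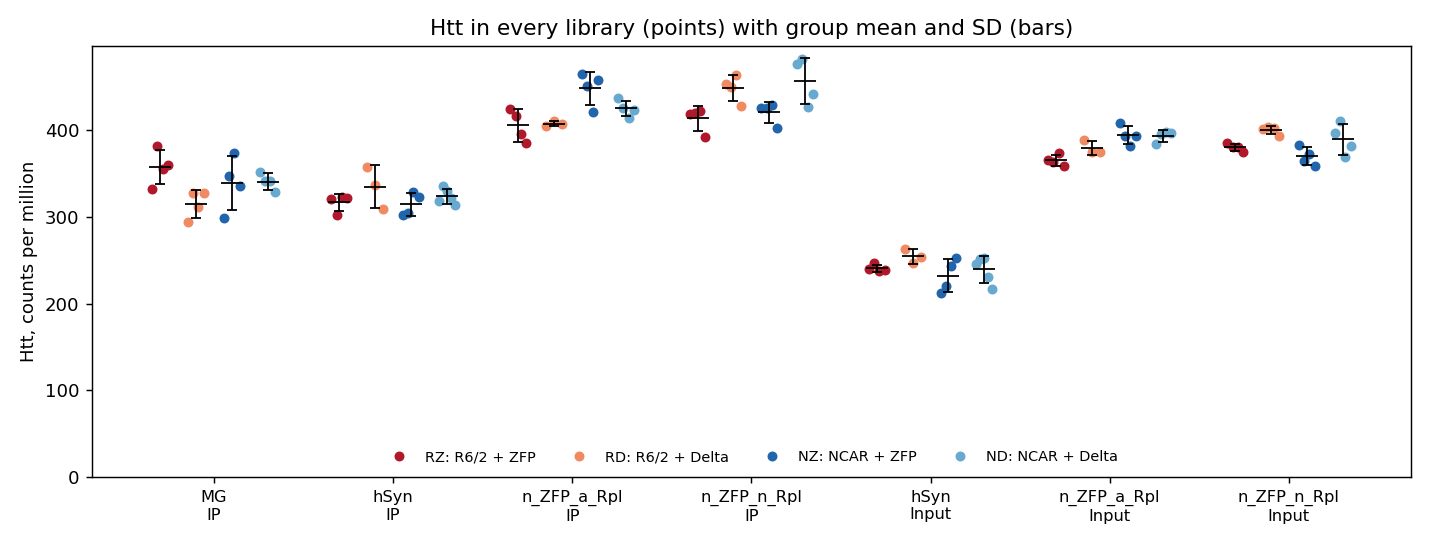
Htt in CPM for every library (points) by set and fraction, with RZ, RD, NZ and ND from left to right and bars for the group mean and SD. In the IP and Input of the n_ZFP_n_Rpl set the RZ libraries (392 to 422 and 375 to 385) lie below the RD libraries (427 to 463 and 392 to 404).

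Atxn1 was lower in RD than in ND in 7 of 7 fits. It was higher in RZ than in RD in 4 of 7, in both fractions of both n_ZFP sets. Both contrasts use the RD libraries, so their opposite signs are not independent. The IP and Input of an n_ZFP set are paired by replicate, so their fits are not independent either. Ataxin 1 works with the repressor capicua (Cic). In the n_ZFP_a_Rpl IP, Atxn1 had 299, 314, 292 and 319 CPM in RZ against 210, 180 and 192 CPM in RD. In that IP, NZ had 328, 365, 323 and 339 CPM and ND 316, 316, 279 and 292 CPM. No RD library reached any library of the other 3 conditions, and RZ overlapped ND. The difference of RZ against RD was 0.66 ± 0.06 (57.7% higher, adjusted p 1.2e-06), and that of RD against ND was -0.63 ± 0.06 (adjusted p 8.03e-07).

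In the n_ZFP_n_Rpl IP, Atxn1 had 407, 380, 356 and 363 CPM in RZ against 320, 310, 320 and 283 CPM in RD. NZ had 384, 369, 372 and 403 CPM and ND 440, 413, 435 and 414 CPM. Here too the RZ libraries were all above the RD libraries, but all were below the ND libraries. RZ against RD was 0.29 ± 0.05 (adjusted p 0.0016) and RD against ND was -0.46 ± 0.05 (adjusted p 2.91e-06).

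In the Inputs of these sets too, every RZ library lay above the RD libraries. Every RZ library there also lay below the ND libraries, which had 415.5 to 450.3 CPM (n_ZFP_a_Rpl) and 418.1 to 450.1 CPM (n_ZFP_n_Rpl). RZ libraries had 370, 383, 376 and 386 CPM against 304, 268 and 272 CPM in RD in the n_ZFP_a_Rpl Input (0.43 ± 0.04, adjusted p 1.06e-06). In the n_ZFP_n_Rpl Input they had 362, 353, 320 and 333 CPM against 309, 300, 283 and 266 CPM in RD (0.24 ± 0.05, adjusted p 0.017). The last call was lost when any of 4 libraries was left out (adjusted p 0.0612 to 0.0762): replicates 3 and 4 of RD, and replicates 1 and 2 of RZ.

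The other 2 sets did not show a rise. In the MG IP, RZ had 197, 166, 165 and 167 CPM and RD 164, 179, 174 and 189 CPM (-0.02 ± 0.09, adjusted p 0.926; 95% interval -0.21 to 0.17). In the hSyn IP, RZ had 283, 285, 311 and 319 CPM and RD 349, 327 and 293 CPM (-0.11 ± 0.08, adjusted p 0.827). Both sets had the lower level in R6/2: RD against ND was -0.68 ± 0.09 in the MG IP (37.4% lower) and -0.51 ± 0.08 in the hSyn IP (29.7% lower). The difference between sets was itself tested for RZ against RD, and it was 0.68 ± 0.11 for the n_ZFP_a_Rpl IP less the MG IP (adjusted p 9.08e-06) and 0.39 ± 0.11 for the n_ZFP_n_Rpl IP less the hSyn IP (adjusted p 0.0252). Between the n_ZFP_n_Rpl and n_ZFP_a_Rpl IPs it was -0.37 ± 0.11 (adjusted p 0.0444), a call that RLE factors (0.0686) and no filter (0.0801) lost. The shares of all genes called in these 3 tests were 10.5% and 2.3% higher and 2.14% lower.

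**Figure D3:**
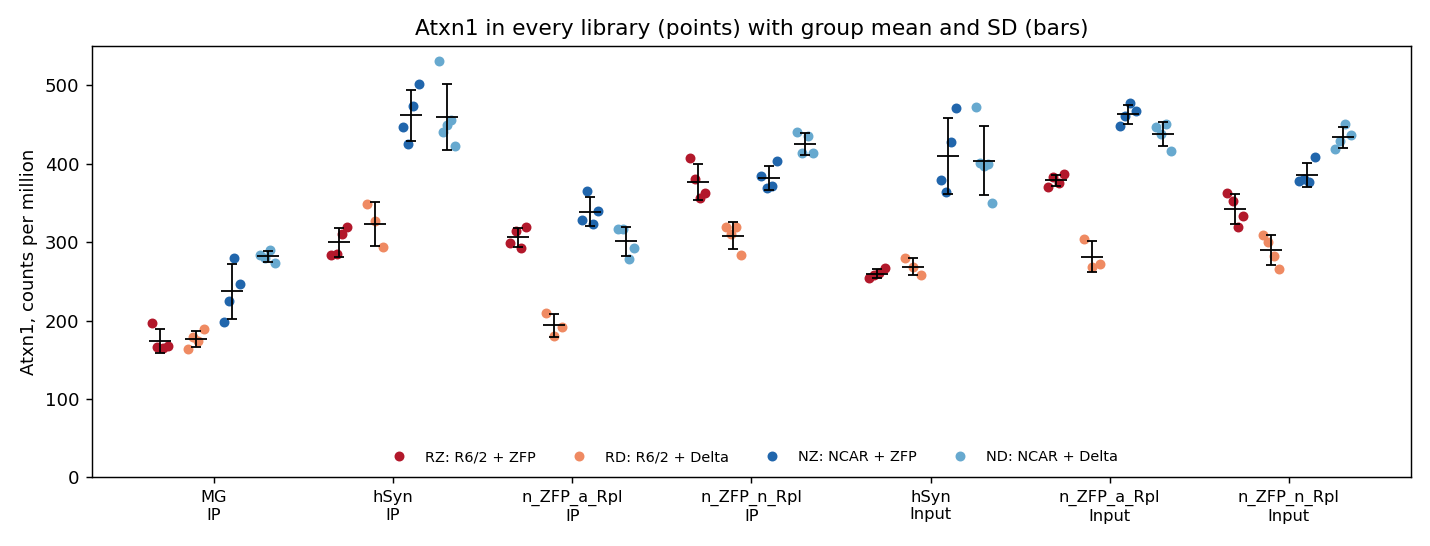
Atxn1 in CPM for every library (points) by set and fraction, with RZ, RD, NZ and ND from left to right and bars for the group mean and SD. In each fit the RD libraries lie below the ND libraries, and in the 4 fits of the n_ZFP sets the RZ libraries lie above the RD libraries.

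In NCAR the ZFP difference of Atxn1 did not pass by edgeR and had both signs. It was -0.25 ± 0.09 in the MG IP (adjusted p 0.0974), 0.17 ± 0.06 in the n_ZFP_a_Rpl IP (0.123), -0.16 ± 0.05 in the n_ZFP_n_Rpl IP (0.0805) and -0.17 ± 0.05 in the n_ZFP_n_Rpl Input (0.0889). The MG values spread widely, at 198, 225, 280 and 247 CPM in NZ against 283, 280, 291 and 273 CPM in ND, and without NZ replicate 4 the difference was -0.34 (adjusted p 0.0285). The n_ZFP_n_Rpl Input difference passed without ND replicate 1 (-0.19, adjusted p 0.0439). DESeq2 called these 4 differences, with the same signs. The n_ZFP_a_Rpl IP less the MG IP was 0.41 ± 0.10 for NZ against ND (adjusted p 0.00576).

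The interaction passed for Atxn1 in the same 4 fits as the rise in R6/2. It was 0.49 ± 0.08 in the n_ZFP_a_Rpl IP (adjusted p 0.000928), 0.44 ± 0.07 in the n_ZFP_n_Rpl IP (0.0014), 0.35 ± 0.06 in the n_ZFP_a_Rpl Input (0.000738) and 0.41 ± 0.07 in the n_ZFP_n_Rpl Input (0.00357). The ZFP difference was thus higher in R6/2 than in NCAR in these fits. The share of all genes called higher in the interaction was 11.4%, 8.47%, 6.69% and 5.0%, and the share called lower was 5.07%, 4.68%, 1.38% and 1.2%.

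Markers of neurons and astrocytes moved in the same libraries. In the n_ZFP_a_Rpl IP, summed neuron markers were 5395 to 5635 CPM in RZ and 3658 to 3996 CPM in RD (8 of 10 higher, 0 lower), and summed astrocyte markers were 11710 to 12710 CPM in RZ and 14220 to 15570 CPM in RD (0 higher, 9 lower). Neither sum overlapped between RZ and RD there. Neuron markers in the n_ZFP_n_Rpl IP were 6257 to 6345 CPM in RZ and 4865 to 5663 CPM in RD (4 of 10 higher, 0 lower), with no overlap. Astrocyte markers in that IP were 1949 to 3014 CPM in RZ and 1453 to 2034 CPM in RD (1 of 10 higher, 0 lower), which overlapped. In the Inputs, neuron markers were 4563 to 4797 CPM in RZ and 3518 to 3872 CPM in RD in the n_ZFP_a_Rpl set (8 of 10 higher), and 4222 to 4587 CPM in RZ and 3779 to 4251 CPM in RD in the n_ZFP_n_Rpl set (1 of 10 higher). The second pair overlapped, and 0 of 10 astrocyte markers passed in either Input.

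In the MG IP, neuron markers were 3771 to 4340 CPM in RZ and 3659 to 4498 CPM in RD, and in the hSyn IP 4806 to 5463 CPM in RZ and 5334 to 5642 CPM in RD, with 0 of 10 passing in each. Astrocyte markers were 12170 to 19540 CPM in RZ and 12840 to 17930 CPM in RD in the MG IP, and 3091 to 3626 CPM in RZ and 2489 to 2984 CPM in RD in the hSyn IP, the second with no overlap and 0 of 10 passing in each. Between NZ and ND, summed neuron markers were lower without overlap in 2 IPs. They were 5021 to 5783 CPM in NZ and 6231 to 6612 CPM in ND in the MG IP (2 of 10 passed as lower), and 7274 to 7951 CPM in NZ and 8281 to 9234 CPM in ND in the n_ZFP_n_Rpl IP (0 of 10 passed, median -0.16). Between RD and ND, 7 to 9 of the 10 neuron markers were lower in each of the 7 fits. The part of these markers in the differences of Atxn1, or of other members in the same libraries, was not tested.

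For the decrease of Atxn1 in RD, the background was large: the share of all genes called lower between RD and ND was 16.2% in the MG IP, 25.5% in the hSyn IP, 24.7% in the n_ZFP_a_Rpl IP and 26.2% in the n_ZFP_n_Rpl IP. It was 21.6%, 24.7% and 23.7% in the 3 Inputs. The share called higher was 17.4%, 25.4%, 20.6% and 25.2% in the IPs and 22.5%, 24.4% and 26.1% in the Inputs. Over the 49 tests of the family, 5 passed as higher and 8 as lower.

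Atxn7 was higher in RD than in ND in 4 of 7 fits, and lower in RZ than in RD in the IPs of both n_ZFP sets. Both contrasts use the RD libraries, so their opposite signs are not independent. In the n_ZFP_n_Rpl IP, Atxn7 had 26, 23.4, 23.7 and 24.4 CPM in RZ against 27.5, 29.3, 29.6 and 30.7 CPM in RD. NZ had 20.9, 20.9, 20.0 and 19.4 CPM against 22.6, 25.4, 25.2 and 23.4 CPM in ND. Neither pair overlapped. Summed neuron markers in these libraries were higher in RZ than in RD and lower in NZ than in ND, with no overlap in either pair, and their part in the Atxn7 differences was not tested. RZ against RD was -0.26 ± 0.05 (16.7% lower, adjusted p 0.00353) and NZ against ND was -0.25 ± 0.05 (15.9% lower, adjusted p 0.0142). The NCAR difference was the one decrease of the family that passed there by edgeR, and in a fit of the NZ and ND libraries alone it had the same size with an adjusted p of 0.0726. RD against ND was 0.28 ± 0.05 (adjusted p 0.000498).

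In the n_ZFP_a_Rpl IP the decrease was seen in R6/2. Atxn7 had 21.6, 24.8, 22.7 and 23.7 CPM in RZ against 27.2, 26.4 and 27.0 CPM in RD, with no overlap (-0.21 ± 0.06, adjusted p 0.0128). NZ had 24.2, 21.0, 22.3 and 22.5 CPM against 20.5, 22.4, 19.8 and 21.7 CPM in ND (0.09 ± 0.06, adjusted p 0.403). The interaction was -0.30 ± 0.08 (adjusted p 0.0196), where 5.07% of all genes were called lower. The difference of NZ against ND between the n_ZFP_n_Rpl and n_ZFP_a_Rpl IPs was -0.34 ± 0.10 (adjusted p 0.0546).

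Values below 0 for RZ against RD that did not pass were found in the other 5 fits, from -0.20 ± 0.09 in the MG IP to -0.04 ± 0.06 in the n_ZFP_a_Rpl Input. In the hSyn Input the groups did not overlap (47.7 to 55.1 CPM in RZ, 55.2 to 59.1 CPM in RD; -0.16 ± 0.06, adjusted p 1.0). RD against ND passed at 0.30 ± 0.07 in the hSyn IP, 0.35 ± 0.06 in the n_ZFP_a_Rpl IP and 0.16 ± 0.06 in the hSyn Input. The hSyn Input call was lost without ND replicate 3 or RD replicates 1 or 2 (adjusted p 0.0552 to 0.101).

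Atxn7 overlaps Thoc7, a gene of the THO mRNA export complex, whose count reached 163% of that of Atxn7 in a library. The strand setting of the counting is not given in the sources used here, so reads of the overlap cannot be assigned. Thoc7 did not pass between RZ and RD or between NZ and ND in any of the 7 fits, and it was -0.13 ± 0.07 and -0.15 ± 0.07 for these in the n_ZFP_n_Rpl IP. Between RD and ND it was higher in 6 of 7 fits, at 0.18 ± 0.07 to 0.34 ± 0.08. Atxn7 also overlaps Gm31222, which was not in the table, and no other member overlapped an annotated gene.

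**Figure D4:**
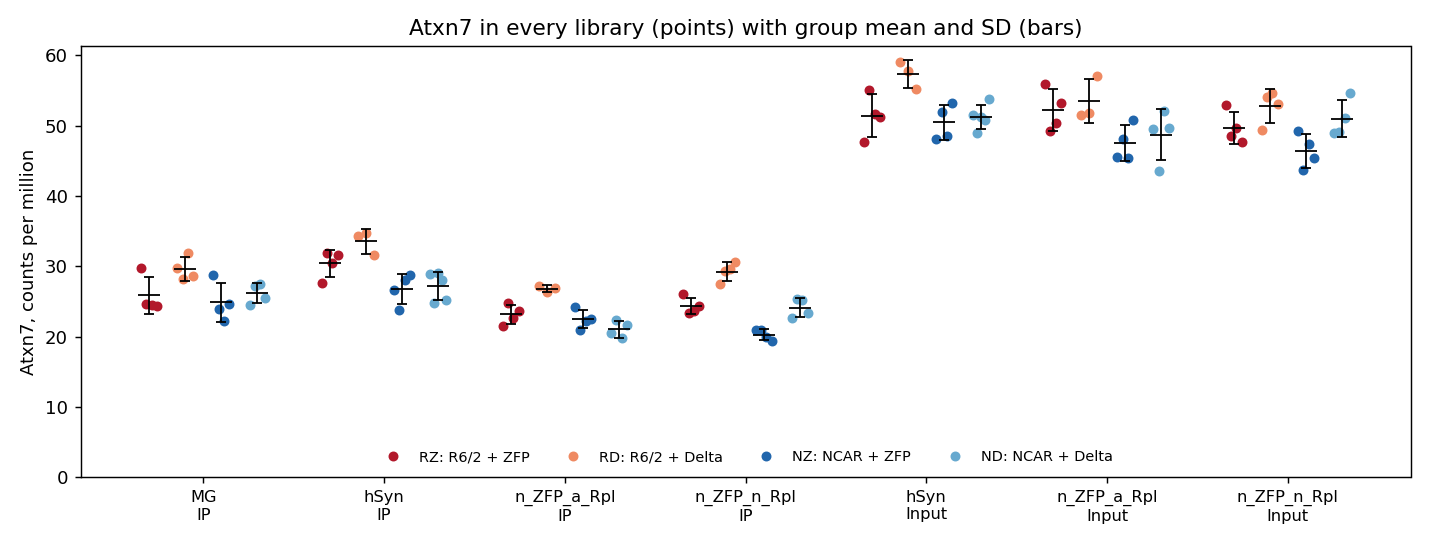
Atxn7 in CPM for every library (points) by set and fraction, with RZ, RD, NZ and ND from left to right and bars for the group mean and SD. In the n_ZFP_n_Rpl IP both ZFP groups lie below their Delta groups, and the Input levels of each set lie above its IP levels.

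Of Atxn3, Tbp, Atn1 and Atxn2, Atxn3 alone passed between ZFP and Delta by edgeR with all libraries; DESeq2 also called Tbp, between NZ and ND in the MG IP. In the n_ZFP_a_Rpl IP, Atxn3 had 43.0, 44.5, 41.2 and 39.9 CPM in RZ against 40.3, 37.5 and 36.6 CPM in RD, groups that overlapped. The difference was 0.15 ± 0.05 (adjusted p 0.0414), and it did not pass with RLE factors (0.0536), with no filter (0.0558) or in a fit of the 2 groups alone (0.0678). It was also lost without RZ replicates 1, 2 or 3, RD replicates 2 or 3, NZ replicate 1 or ND replicate 1 (0.0509 to 0.159). In NCAR it was 0.17 ± 0.05 there (adjusted p 0.0854 by edgeR, 0.0231 by DESeq2). Atxn3 had 45.3, 49.7, 44.4 and 43.8 CPM in NZ, all above 41.3, 40.6, 40.1 and 41.4 CPM in ND. By edgeR with all libraries and no block, Atxn3 passed in no fit between RD and ND. It passed in the hSyn Input with the replicate number as a block (0.24, adjusted p 0.0482). In the n_ZFP_n_Rpl IP it passed without ND replicate 1 (0.17, adjusted p 0.0478).

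Tbp, Atn1 and Atxn2 had their lowest values of RZ against RD in the MG IP, where 1 library decided the calls. Tbp had 17.9, 14.6, 14.7 and 13.4 CPM in RZ against 16.9, 20.0, 18.6 and 19.2 CPM in RD. Atn1 had 27.1, 19.6, 18.7 and 18.1 CPM in RZ against 21.5, 28.8, 27.2 and 24.1 CPM in RD. Atxn2 had 86.4, 53.9, 60.8 and 56.1 CPM in RZ against 75.6, 91.6, 83.5 and 75.6 CPM in RD. In each gene RZ replicate 1 was the highest of its group and the other 3 RZ libraries lay below every RD library. With all libraries the differences were -0.31 ± 0.10, -0.28 ± 0.13 and -0.34 ± 0.14 (adjusted p 0.175, 0.255 and 0.237).

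Without RZ replicate 1, 4 members passed as lower in the MG IP and none as higher. The differences were -0.40 for Tbp (adjusted p 0.0127), -0.43 for Atn1 (0.0163), -0.52 for Atxn2 (0.0143) and -0.27 for Atxn7 (0.0362). The background also rose without this library, to 7.51% of 15469 genes called lower and 5.7% called higher. Leaving out any other MG library gave 0 members in this comparison. DESeq2 with all libraries gave 0 as well, and 4 members had an unadjusted p under 0.05 in the lower direction and 1, Htt, in the higher.

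In NCAR, Tbp in the MG IP had 17.1, 14.6, 15.5 and 13.3 CPM in NZ against 17.6, 20.0, 19.1 and 17.2 CPM in ND. These groups did not overlap, and the difference was -0.29 ± 0.10 (adjusted p 0.0758; 0.0285 by DESeq2). It passed without NZ replicate 2 (-0.35, adjusted p 0.0323) or RZ replicate 1 (-0.29, adjusted p 0.0336). The n_ZFP_a_Rpl IP less the MG IP was 0.44 ± 0.11 for Tbp (adjusted p 0.00743) and 0.30 ± 0.10 for Atxn3 (adjusted p 0.0287) in NZ against ND, where 7.14% of all genes were called higher. In the other 6 fits, Tbp ran from -0.10 to 0.15 in NCAR and from -0.03 to 0.06 in R6/2.

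Between RD and ND, Atn1 was higher in the n_ZFP_n_Rpl IP and Atxn2 was lower in the hSyn Input. Atn1 had 60.9, 61.2, 53.4 and 55.5 CPM in RD against 46.5, 54.1, 35.9 and 44.0 CPM in ND, groups that overlapped (0.36 ± 0.13, adjusted p 0.0341). This call was lost without RD replicates 1 or 2 or without ND replicates 1, 3 or 4 (0.0502 to 0.104). Atxn2 had 75.1, 61.3 and 60.4 CPM in RD against 85.0, 74.0, 93.6, 75.3 and 67.1 CPM in ND (-0.27 ± 0.10, adjusted p 0.0416). It too was lost in 7 of 16 fits with a library left out. Those fits were without RD replicates 2 or 3, ND replicates 2 or 4, or RZ replicates 1, 2 or 4 (0.0502 to 0.172).

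Between IP and Input, 7 of 7 members passed in the hSyn and n_ZFP_a_Rpl sets and 6 of 7 in the n_ZFP_n_Rpl set. These fits did not pair the IP and Input libraries of a replicate. With such pairs as a block, the same numbers of members passed. Most genes passed in these contrasts: 39.2% (hSyn), 42.6% (n_ZFP_n_Rpl) and 42.1% (n_ZFP_a_Rpl) of all genes were called higher and 39.5%, 40.7% and 42.8% lower, so the members' count is near that of all genes. Htt and Atn1 were higher in the IP than in the Input in all 3 sets with both fractions, and Atxn3, Atxn7 and Tbp were lower in all 3. Htt was 0.62 ± 0.03 (hSyn), 0.39 ± 0.02 (n_ZFP_n_Rpl) and 0.33 ± 0.02 (n_ZFP_a_Rpl). Atxn7 was -0.63 ± 0.03, -0.82 ± 0.03 and -0.92 ± 0.03 in the same sets. Atxn1 was the member whose sign differed between sets. It was higher in the neuron IPs than in their Inputs, at 0.41 ± 0.04 (hSyn) and 0.26 ± 0.03 (n_ZFP_n_Rpl). In the n_ZFP_a_Rpl IP, where neuron markers were not depleted, it was lower than in the Input, at -0.27 ± 0.02.

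The n_ZFP_n_Rpl less n_ZFP_a_Rpl difference of IP over Input was tested. It was 0.52 ± 0.04 for Atxn1 (adjusted p 1.14e-18), 0.42 ± 0.04 for Atxn3 (8.6e-15) and 0.27 ± 0.04 for Tbp (2.44e-07), and 38.0% of all genes were called higher there. Atxn7 was 0.09 ± 0.04 (adjusted p 0.0520). Htt was 0.05 ± 0.03 (adjusted p 0.0961 by edgeR without pairs). It passed with the IP and Input of a replicate paired as a block (0.05, adjusted p 0.0229). With these pairs 4 members passed, against 3 without. Atn1 was 0.05 ± 0.08 and Atxn2 -0.04 ± 0.05, with 95% intervals from -0.12 to 0.22 and from -0.14 to 0.06. Atxn2 was higher in the IP of the hSyn set (0.55 ± 0.05) and of the n_ZFP_a_Rpl set (0.07 ± 0.03, adjusted p 0.0201). The second of these was lost with RLE factors (0.05, adjusted p 0.117) and with DESeq2 (0.05, adjusted p 0.119).

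**Figure D5:**
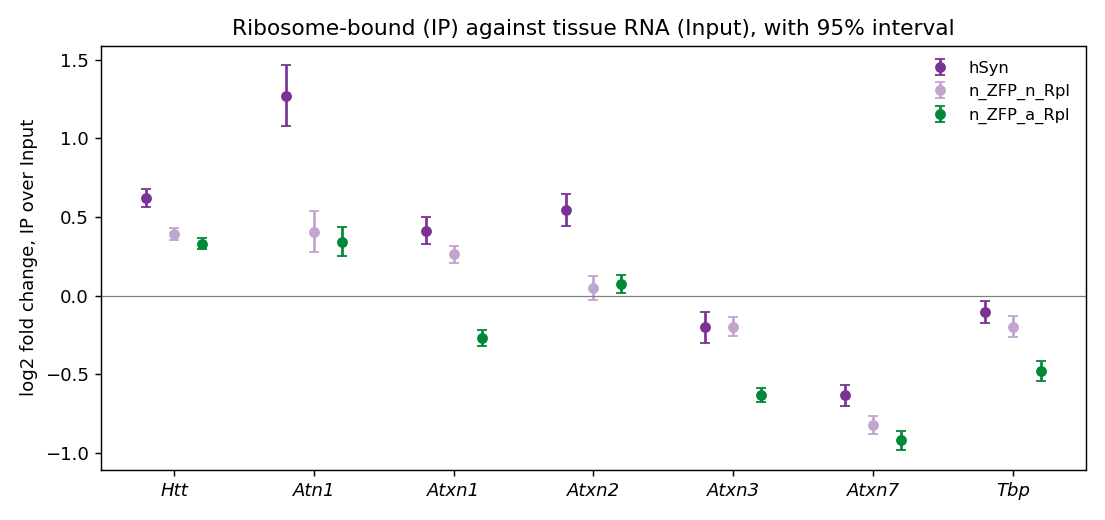
Log2 fold change of IP over Input for each gene over the 4 conditions, with 95% intervals, in the hSyn, n_ZFP_n_Rpl and n_ZFP_a_Rpl sets from left to right. Atxn1 is above 0 in the hSyn and n_ZFP_n_Rpl sets and below 0 in the n_ZFP_a_Rpl set. Atxn3, Atxn7 and Tbp are below 0 in each.

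Cacna1a, a neuronal calcium channel subunit, is also a polyglutamine disease gene. Cacna1a was lower in RD than in ND in 7 of 7 fits (-0.48 ± 0.08 in the MG IP to -0.21 ± 0.05 in the n_ZFP_a_Rpl Input). It was higher in RZ than in RD in the n_ZFP_a_Rpl IP (0.44 ± 0.05) and Input (0.23 ± 0.05). It did not pass between NZ and ND in any fit, where it ran from -0.20 ± 0.08 to 0.16 ± 0.05.

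Of 8 tested paralogues of the family, 3 were higher between RZ and RD, all in the n_ZFP_a_Rpl IP: Atxn7l3, a SAGA subunit (0.34 ± 0.04), Atxn1l, a relative of Atxn1 (0.15 ± 0.04), and Atxn7l3b (0.12 ± 0.04). The median of the 8 was 0.06, against -0.004 for all genes tested. In that IP, 19.1% of all genes were called higher and 14.7% lower between RZ and RD. Tbpl1, a relative of Tbp, was higher between RD and ND in the hSyn IP (0.36 ± 0.06) and n_ZFP_n_Rpl IP (0.15 ± 0.05). Rere, the relative of Atn1, was lower in the MG IP (-0.20 ± 0.06) and n_ZFP_a_Rpl IP (-0.20 ± 0.05). None of the 8 passed between NZ and ND in any fit.

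Binding partners of the proteins were listed as well. Of 15 partners of Htt, 6 were higher and 1 lower between RZ and RD in the n_ZFP_a_Rpl IP (median 0.08, against -0.004 for all genes tested). Of all genes tested there, 19.1% were called higher and 14.7% lower. Rasd2, a striatal small GTPase, was 1.56 ± 0.12, and Pacsin1, an endocytic adaptor, was 0.44 ± 0.06. The same genes were -1.88 ± 0.12 and -0.65 ± 0.06 between RD and ND there. Between NZ and ND, 0 of 15 passed in that IP.

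Cic, 1 of 4 listed partners of Atxn1, was lower between RD and ND in the MG IP (-0.70 ± 0.08), the hSyn IP (-0.37 ± 0.07) and the n_ZFP_a_Rpl IP (-0.57 ± 0.07). It was higher between RZ and RD in the n_ZFP_a_Rpl IP (0.30 ± 0.07). Values of Cic in the other fits, and those of the other listed partners, are not given here. Of 15 SAGA subunits listed with Atxn7, 8 were higher and 1 lower between RD and ND in the n_ZFP_n_Rpl IP, with a median of 0.22, against -0.002 for all genes tested. They include Usp22, the enzyme of the module that Atxn7 anchors, at 0.37 ± 0.04. Between RZ and RD in that IP, 0 were higher and 1 lower: Kat2a, the acetyltransferase, at -0.14 ± 0.04. Of 23 TFIID and Tbp-binding factors, 10 were higher and 4 lower between RD and ND there, and 2 higher and 4 lower between RZ and RD. The medians were 0.06 and -0.07, against -0.002 and 0.004 for all genes tested. In that IP, 25.2% of all genes were called higher and 26.2% lower between RD and ND. Between RZ and RD, 9.47% were called higher and 7.95% lower. For the 23 factors, the count called higher between RZ and RD is near that share, and the count called lower is above it. Neither count was tested against the shares. Taf1, the largest TFIID subunit, was 0.47 ± 0.04 between RD and ND and -0.22 ± 0.04 between RZ and RD.

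Single genes of the smaller partner lists had opposite signs in these contrasts. They were picked for a small adjusted p from 5 Atn1, 5 Atxn2 and 6 Atxn3 partners. The counts called in these lists are not given, so the genes do not describe them. In the n_ZFP_a_Rpl IP, 20.6% of all genes were called higher and 24.7% lower between RD and ND. Between RZ and RD, 19.1% were called higher and 14.7% lower. Baiap2, an Atn1 partner and actin regulator, was -1.03 ± 0.09 between RD and ND and 0.74 ± 0.09 between RZ and RD in the n_ZFP_a_Rpl IP. Rbfox1, a splicing factor that binds Atxn2, was -0.78 ± 0.08 and 0.67 ± 0.08 for these. Vcp, the segregase that binds Atxn3, was 0.20 ± 0.04 and -0.15 ± 0.04. The contrasts share the RD libraries, so opposite signs are not independent.

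Genes with a promoter run of 4 or more CAG or CTG units formed a list of 117, of which 62 were in the table. Between NZ and ND, 7 of the 50 tested were lower and 0 higher in the n_ZFP_a_Rpl IP. In the n_ZFP_n_Rpl IP, 4 of 49 were lower and 1 higher. For all genes with a promoter entry, the counts were 101 lower and 136 higher of 11329 in the first IP and 518 lower and 317 higher of 11228 in the second. The medians of the list were -0.10 and -0.03 in these IPs. Rsl24d1, Tceal6 and Prelp, given next, were picked from the genes of the list that fell. Genes of the list that rose are not named, and values are given for some fits only, so these genes do not describe the list. Rsl24d1, a ribosome biogenesis factor whose window is printed above, was -0.94 ± 0.08 in NCAR and -1.16 ± 0.08 in R6/2 in the n_ZFP_a_Rpl IP. It was -1.05 ± 0.12 and -1.65 ± 0.12 in the n_ZFP_n_Rpl IP. Tceal6 was -4.95 ± 0.14 and -4.55 ± 0.14 in the n_ZFP_a_Rpl IP and -2.31 ± 0.09 and -2.63 ± 0.09 in the n_ZFP_n_Rpl IP.

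Prelp, an extracellular matrix protein, was lower between RZ and RD in the MG IP (-2.31 ± 0.28) and the hSyn IP (-2.71 ± 0.36), where no member passed. It was also lower between NZ and ND in the MG IP (-2.23 ± 0.28). The largest decrease of a member with the ZFP that passed was -0.26. Most genes of the list did not pass: in R6/2, 12 of 50 were lower and 10 higher in the n_ZFP_a_Rpl IP. Their median was -0.025, against -0.007 for all genes with a promoter entry. Of all genes tested in that contrast, 14.7% were called lower and 19.1% higher.

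Over the 16 IP group means (each centred on its set, 11159 genes), the genes most like Atxn1 were Mark2, Cttnbp2 and Smpd3, with Pearson correlations of 0.993, 0.992 and 0.991. Those most like Atxn7 were Dennd4c, Rnf138 and Suv39h2 (0.965, 0.963 and 0.957), and those most like Htt were Mgat4a, Lancl1 and Fam134a (0.83, 0.79 and 0.781). Within the family, Atxn1 and Atxn7 had a correlation of -0.674 and Atxn1 and Atxn2 of 0.631, while the values of Htt with the others lay between -0.383 and 0.16. The means share libraries and scaling between genes.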

How the data were processed

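RNA was sequenced from RiboTag pulldowns and tissue in 110 libraries. The deposited table holds raw read counts per gene; alignment with STAR, counting with HTSeq and the build mm10 are per the submitters' processing notes, with versions not given in the sources used here. Of 24060 rows, 4 with repeated symbols were left out. Groups came from the labels. Each set and fraction was fitted over all its conditions with edgeR 4.0.16 (R 4.3.3): filterByExpr (minimum count 10, minimum total 15), TMM, robust quasi-likelihood fit and Benjamini-Hochberg adjustment over all genes at 0.05. The IP against Input contrast and the differences between sets came from joint fits. Intervals are at 95%.

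The 7 genes and all lists were chosen with earlier results of these data known. Genes other than members were taken from the 3 per direction with the smallest adjusted p of a list, and not all of these are printed. Others were named as the 3 most alike over group means of genes of at least 5 CPM. Alternatives were RLE factors, no filter, DESeq2 1.42.0, the replicate number as a block, a fit of the groups compared alone, and leaving out each library. For IP against Input, the block was the IP and Input pair of the same set, condition and replicate number. The scripts were tested on simulated data. No 2 libraries were identical, and the lowest reduced chi-square of a pair within a group was 5.67. Replicate numbers paired IP with Input in the n_ZFP_a_Rpl set (correlations of deviations 0.395 to 0.6) and the n_ZFP_n_Rpl set (0.453 to 0.676), and paired no conditions. Counts of a gene carry counting error beside the spread between libraries. Glutamine tracts of the mouse proteins were not used here.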

Additional observations from a re-analysis of the deposited data

Results flagged for a closer look

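A member was paired with each group of 4 or 5 libraries, which gave 168 pairings. In 10 of them the highest or lowest library stood apart from the rest by Dixon's criterion, and chance alone gives about 1 in 20. Members of a group share its libraries, so the pairings are not independent. Replicate 1 of RZ in the MG IP was the highest of its group in 3 of the 10, with 27.12 CPM for Atn1, 196.8 CPM for Atxn1 and 29.82 CPM for Atxn7. Htt was lowest in RZ replicate 2 of the hSyn IP (302.1 CPM), in RZ replicate 4 of the n_ZFP_n_Rpl IP (391.9 CPM) and in NZ replicate 4 of that IP (402.1 CPM). Atn1 was highest in NZ replicate 3 of the n_ZFP_a_Rpl Input (31.87 CPM) and in NZ replicate 2 of the n_ZFP_n_Rpl Input (55.11 CPM). In the n_ZFP_n_Rpl Input, Atxn1 was highest in NZ replicate 4 (408.6 CPM) and Atxn2 was lowest in RZ replicate 1 (84.54 CPM).

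The ZFP difference of R6/2 less that of NCAR passed its own test for Atxn1 in the n_ZFP_a_Rpl IP (0.4871), the n_ZFP_n_Rpl IP (0.4442), the n_ZFP_a_Rpl Input (0.3471) and the n_ZFP_n_Rpl Input (0.4061), and for Atxn7 in the n_ZFP_a_Rpl IP (-0.3032). Between sets, RZ against RD differed for Atxn1 by 0.6799 (n_ZFP_a_Rpl IP less MG IP), 0.3924 (n_ZFP_n_Rpl IP less hSyn IP) and -0.3725 (n_ZFP_n_Rpl IP less n_ZFP_a_Rpl IP). For NZ against ND, the n_ZFP_a_Rpl IP less the MG IP was 0.413 for Atxn1, 0.3003 for Atxn3 and 0.4351 for Tbp.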

How the results depend on the processing

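No called value of a member changed sign under any alternative; directions of values that did not pass were not compared. Calls stayed on their side of the threshold in 283 of 287 gene and comparison pairs with RLE factors, 284 of 287 with no filter, 275 of 287 with DESeq2, 219 of 224 with the replicate block, 143 of 147 in fits of the groups compared alone, and 3698 of 3738 with a library left out. The number of members called between NZ and ND was 2 with DESeq2 against 0 in the MG IP and in the n_ZFP_a_Rpl IP, 2 against 1 in the n_ZFP_n_Rpl IP, and 1 against 0 in the n_ZFP_n_Rpl Input. In the n_ZFP_n_Rpl IP it was 0 in a fit of NZ and ND alone. Between RD and ND, the replicate block gave 2 members against 1 in the n_ZFP_a_Rpl Input and in the n_ZFP_n_Rpl Input, where DESeq2 and the 2 groups alone also gave 2. The block moved no other count of members by over 1.5 times. For RZ against RD between sets, the n_ZFP_a_Rpl IP less the MG IP gave 2 members with RLE factors, no filter and DESeq2 against 1, and the n_ZFP_n_Rpl IP less the n_ZFP_a_Rpl IP gave 0 with RLE factors and with no filter against 1. For NZ against ND, the n_ZFP_n_Rpl IP less the n_ZFP_a_Rpl IP gave 2 with DESeq2 against 0.

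With a library left out, the counts of members ran from 0 to 1 for NZ against ND in the MG IP and the n_ZFP_n_Rpl Input, from 0 to 4 for RZ against RD in MG, and from 0 to 1 for RZ against RD in the n_ZFP_n_Rpl Input. For RD against ND they ran from 1 to 3 in the hSyn Input (1 without RD replicate 2) and from 1 to 2 in the n_ZFP_a_Rpl Input (2 without ND replicate 3) and the n_ZFP_n_Rpl Input (2 without ND replicates 1, 2 or 3 or NZ replicate 2). The MG IP count for NZ against ND was 1 without NZ replicates 2 or 4 or RZ replicate 1. The cause was not tested.

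Over all genes, calls between RZ and RD in the MG IP numbered 12, against 391 with DESeq2, 6 with the block and 1 with the 2 groups alone. In the hSyn IP they numbered 6, against 22 with DESeq2, 1 with the block and 10 with the 2 groups alone. In the hSyn Input they numbered 0, against 5 with DESeq2 and 1 with the 2 groups alone. In the n_ZFP_n_Rpl Input they numbered 525, against 901 with DESeq2. Between NZ and ND, the MG IP had 1081 calls against 2251 with DESeq2 and 3 with the block, the n_ZFP_a_Rpl IP 316 against 875 with DESeq2 and 146 with the 2 groups alone, and the n_ZFP_n_Rpl IP 1113 against 1751 and 241. The hSyn IP had 4 against 10 and 2, the hSyn Input 1 against 5 with DESeq2, the n_ZFP_a_Rpl Input 151 against 336 and 95, and the n_ZFP_n_Rpl Input 479 against 1101, 37 and, with the block, 287. RLE factors moved the split of higher and lower calls for RZ against RD to 1384 and 910 (1679 and 670 with TMM) in the n_ZFP_a_Rpl IP less the MG IP, and to 134 and 159 (140 and 344 with TMM) in the n_ZFP_n_Rpl IP less the n_ZFP_a_Rpl IP; with no filter the second had 107 and 140. Replicate numbers did not pair any conditions (correlations of deviations between -0.359 and 0.312).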
